A study of Mus musculus with 12 samples.

Results

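The adipose tissue macrophage genes Csf1r, Adgre1, Mrc1, Cd163, C1qa, C1qb, C1qc, Cd68 and Lyz2 were followed through the mature adipocyte and stromal vascular fractions of inguinal fat. They were taken by symbol from a table of 16670 genes: 8 of the 9 had a row under the symbol itself, and Adgre1 had its row under the older symbol Emr1, so that all 9 were measured. The tissue came from female C57BL/6 mice that were either Kdm5c+/-, heterozygous for an X-linked histone demethylase gene, or wild type (Kdm5c+/+). Each library started from the inguinal fat of 2 mice, combined and dissociated with collagenase, and the floating mature adipocytes and the pelleted stromal vascular cells were sequenced separately, giving 4 groups of 3 libraries. No source used here states the age of the mice or how the Kdm5c allele was made, and Kdm5c itself did not separate the genotypes: it stood at 158 to 194 CPM (the share of a library's reads that fall on a gene, scaled to a sum of 1000000) in the 6 libraries labelled Kdm5c+/- and at 174 to 188 CPM in the 6 labelled wild type. Every genotype direction below therefore rests on the labels. Where the deleted part lies is likewise unstated, so a whole-gene value need not fall with it.

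Macrophages are tissue phagocytes that depend on signals through the CSF1 receptor, take up dead cells, lipid and iron, and are the most studied immune cells of fat. In lean fat many sit along vessels and carry scavenger receptors such as the mannose receptor and CD163, and in obesity others gather around dying adipocytes and take on a lipid-handling programme. When fat is digested and spun, macrophages are recovered with the pelleted stromal vascular cells, together with endothelial cells, fibroblast-like progenitors, pericytes and lymphocytes.

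The separation was checked on genes outside the macrophage set. Adipoq, the adipokine of mature fat cells, was at 3993 to 4602 CPM in mature adipocyte libraries and at 45.4 to 169 CPM in stromal vascular libraries. Pdgfra, a marker of progenitors, was at 4.98 to 13.1 and 573 to 772 CPM in the same order, and the endothelial gene Pecam1 at 17.1 to 58.1 and 1085 to 1588 CPM. Both labelled fractions thus carried the genes that define them, with a small remainder of the other fraction's genes in each. The libraries held 21836878 to 29434125 reads on the listed genes, so a limit of 3 reads corresponded to 0.102 to 0.137 CPM. The fewest reads of any macrophage gene in a library were 33, for Adgre1 in the first wild-type mature adipocyte library.

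C1qa, C1qb and C1qc encode the A, B and C chains of C1q, the recognition molecule that starts the classical complement pathway and that tissue macrophages are known to make. In GRCm38 (GENCODE release 21) the 3 genes lie side by side on the minus strand of chromosome 4, C1qb at chr4:136880129-136886187, C1qc at chr4:136889804-136893065 and C1qa at chr4:136895917-136898803, all within 18.7 kb and with 0 other genes of the table wholly inside. Promoters of the C1q genes are shown because their levels kept nearly fixed proportions in stromal vascular libraries. That of Cd68 is shown because it is the member whose levels followed the others least closely over all libraries, and it was added after its values were seen. RefSeq promoter windows of GRCm38.p6, 250 bases before to 50 bases after the start, were found for 6 of the 9 genes (Mrc1, Cd163, C1qb, C1qc, Cd68 and Lyz2). They were searched on both strands for GAGGAAGT, a form of the site of the myeloid factor PU.1, for its core GAGGAA, which every GAGGAAGT also holds, and for TTGCNNAA, a form of the C/EBP site. Capitals below mark every match to any of these letters, read 5′ to 3′ on the gene's own strand.
C1qb promoter, chr4:136886151-136886450 (minus strand): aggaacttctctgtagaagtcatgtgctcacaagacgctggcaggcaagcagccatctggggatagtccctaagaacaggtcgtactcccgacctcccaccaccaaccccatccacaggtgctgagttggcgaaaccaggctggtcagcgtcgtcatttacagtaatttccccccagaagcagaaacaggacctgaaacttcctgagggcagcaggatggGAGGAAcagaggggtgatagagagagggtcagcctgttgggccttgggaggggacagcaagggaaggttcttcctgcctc
C1qc promoter, chr4:136892865-136893164 (minus strand): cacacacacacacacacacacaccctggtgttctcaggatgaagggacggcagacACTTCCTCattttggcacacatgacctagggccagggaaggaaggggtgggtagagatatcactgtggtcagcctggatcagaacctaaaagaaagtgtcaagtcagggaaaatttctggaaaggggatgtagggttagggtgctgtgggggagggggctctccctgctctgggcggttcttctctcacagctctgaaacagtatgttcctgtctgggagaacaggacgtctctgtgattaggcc
Cd68 promoter, chr11:69666121-69666420 (minus strand): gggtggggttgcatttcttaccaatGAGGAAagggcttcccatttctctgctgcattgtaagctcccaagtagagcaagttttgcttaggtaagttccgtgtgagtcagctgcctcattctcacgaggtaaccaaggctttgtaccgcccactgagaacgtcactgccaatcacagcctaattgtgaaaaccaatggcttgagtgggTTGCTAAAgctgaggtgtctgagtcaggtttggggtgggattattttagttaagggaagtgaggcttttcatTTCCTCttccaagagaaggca
The C1qc window held GAGGAAGT on the opposite strand, at bases -195 to -188 counted from the start, and was 1 of 6 windows with it against 3.11% of all 32544 promoters in the table. The C1qb window held the shorter core on its own strand at bases -30 to -25. Including these, 4 of the 6 windows held the core (Mrc1, C1qb, C1qc and Cd68), as did 28.1% of all promoters. The C/EBP letters were present in the Cd68 window alone of the 6, at bases -43 to -36, and in 10.8% of all promoters. These are matches of letters, and binding was not measured.

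Within the stromal vascular fraction the lysozyme gene Lyz2, which encodes the bactericidal lysozyme of macrophages and granulocytes, had the highest level per transcript length and Adgre1 the lowest. On the scale of CPM per kilobase of the longest protein-coding transcript, over 6 stromal vascular libraries, Lyz2 stood at 426 ± 70.4 (SD, n = 6). The C1q chains followed at 293 ± 69.5 for C1qa, 244 ± 60.6 for C1qb and 222 ± 53.1 for C1qc. Next on the same scale came Cd68 at 102 ± 15.6, Csf1r at 82.2 ± 11.3, Mrc1 at 78.1 ± 14.4, Cd163 at 56.0 ± 21.1 and Adgre1 at 30.5 ± 6.92. C1qc and Cd68 were the only neighbours in this order whose ranges over the 6 libraries did not overlap. Within each library the order was nevertheless steady: each gene exceeded the next in 6 of 6 libraries, except that Csf1r exceeded Mrc1 in 4 of 6 and Mrc1 exceeded Cd163 in 5 of 6. Lyz2 has a near-identical neighbour, Lyz1, also on chromosome 10, to which the counting could have assigned some of its reads. The deposited Lyz1 value was 0.0245 to 0.0705 of the Lyz2 value over the 12 libraries. Csf1r overlaps Hmgxb3 on the opposite strand, and whether counting used the strand is not stated.

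**Figure D1:**
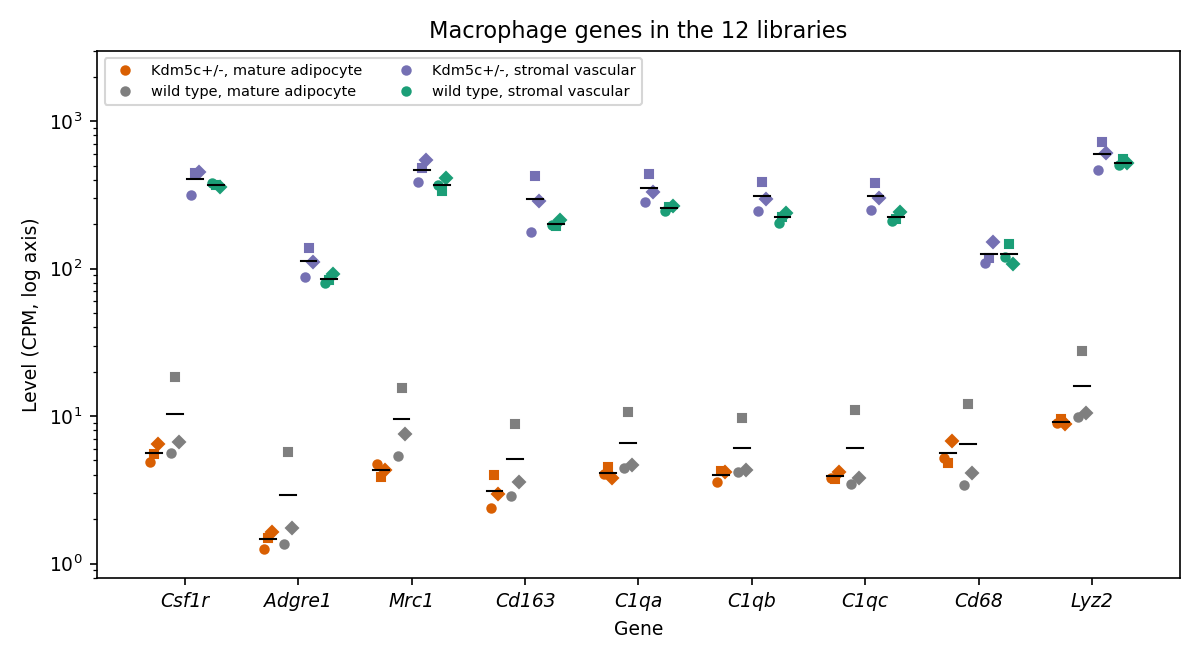
Level of each macrophage gene in CPM (log axis) in the 12 libraries. Colours give genotype and fraction, point shapes the replicate number (circle 1, square 2, diamond 3) and bars the group mean; each gene's stromal vascular libraries lie above all its mature adipocyte libraries, and the wild-type mature adipocyte library 2 is the highest of its fraction for 9 of 9 genes.

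The comparison of fractions asks where in the digested fat these transcripts were recovered. All 9 macrophage genes were lower in mature adipocytes than in the stromal vascular fraction (limma on log2(CPM + 1), Benjamini-Hochberg adjustment, highest adjusted p = 7.39e-09), where 59.1% of all 14193 genes tested were called lower. The median log2 difference, mature adipocyte minus stromal vascular, was -5.56 for the macrophage genes and -0.45 for all genes. For all 9 the fractions did not overlap, as held in that direction for 51.4% of all genes. A deposited share of reads in a bulk fraction cannot tell fewer cells of a type from less RNA per cell, here or in the comparisons that follow.

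Csf1r encodes the receptor for the growth factors CSF1 and IL-34. In stromal vascular cells it stood at 313, 444 and 452 CPM in the Kdm5c+/- libraries and 382, 366 and 359.6 CPM in the wild-type libraries. In mature adipocytes it stood at 4.88, 5.52 and 6.46 CPM in the Kdm5c+/- libraries and 5.62, 18.5 and 6.72 CPM in the wild-type libraries. The lowest stromal vascular library was far above the highest adipocyte library, and the difference of means was 48.6-fold (log2 difference -5.57 ± 0.23, SE). Adgre1 encodes the F4/80 antigen, an adhesion receptor used to mark mouse macrophages. Its stromal vascular levels were 87.3, 139 and 111 CPM in the Kdm5c+/- libraries and 79.7, 84.1 and 92.2 CPM in the wild-type libraries. Its mature adipocyte levels were 1.25, 1.48 and 1.65 CPM in the Kdm5c+/- libraries and 1.36, 5.71 and 1.74 CPM in the wild-type libraries, a 45.0-fold difference of means (log2 -5.06 ± 0.22).

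Mrc1, the mannose receptor CD206, binds sugars on microbes and on endogenous glycoproteins, and Cd163 takes up haemoglobin bound to haptoglobin. Stromal vascular Mrc1 was at 384, 479 and 542 CPM in the Kdm5c+/- libraries and 369, 333 and 409 CPM in the wild-type libraries. Mature adipocyte Mrc1 was at 4.70, 3.88 and 4.31 CPM in the Kdm5c+/- libraries and 5.37, 15.5 and 7.61 CPM in the wild-type libraries. All stromal vascular libraries lay above all adipocyte libraries, among which the second wild-type library was the highest. The fractions were 60.8-fold apart (log2 -5.86 ± 0.19). Stromal vascular Cd163 was at 177, 424 and 287 CPM in the Kdm5c+/- libraries and 197, 195 and 214 CPM in the wild-type libraries. In mature adipocytes Cd163 was at 2.38, 3.96 and 2.98 CPM in the Kdm5c+/- libraries and 2.85, 8.83 and 3.55 CPM in the wild-type libraries. Its fractions were also 60.8-fold apart (log2 -5.65 ± 0.25), and these scavenger receptors had the widest separation of the 9 genes as a ratio of means.

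The C1q chains separated to a similar degree. C1qa was at 284, 440.4 and 329.9 CPM in the Kdm5c+/- libraries and 246, 262 and 267 CPM in the wild-type libraries in stromal vascular cells. Its mature adipocyte levels were 4.07, 4.48 and 3.80 CPM in the Kdm5c+/- libraries and 4.42, 10.6 and 4.64 CPM in the wild-type libraries, 57.2-fold lower by the means (log2 -5.64 ± 0.18). The log2 differences of C1qb and C1qc were -5.50 ± 0.18 and -5.56 ± 0.21. Over the 6 stromal vascular libraries the CPM ratio of C1qa to C1qb stayed within 1.11 to 1.20, and that of C1qb to C1qc within 0.969 to 1.03, while C1qa itself ranged from 246 to 440.4 CPM. Thus the chains kept nearly fixed proportions to each other through stromal vascular libraries in which their common level varied. In mature adipocyte libraries, at a few CPM, the same ratios ranged more widely, from 0.915 to 1.14 and from 0.883 to 1.20.

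By the ratio of means, the lysosomal genes Lyz2 and Cd68 were the least separated of the 9. Stromal vascular Lyz2 was at 465, 722 and 607 CPM in the Kdm5c+/- libraries and 500.5, 551 and 519 CPM in the wild-type libraries. Mature adipocyte Lyz2 was at 8.99, 9.57 and 8.89 CPM in the Kdm5c+/- libraries and 9.92, 27.6 and 10.5 CPM in the wild-type libraries, a 44.6-fold difference of means (log2 -5.48 ± 0.21). The libraries of the fractions again did not overlap. Cd68 encodes a lysosomal membrane glycoprotein of phagocytes and was at 109, 117 and 151 CPM in the Kdm5c+/- libraries and 120.1, 148 and 108 CPM in the wild-type libraries in stromal vascular cells. Its mature adipocyte values were 5.17, 4.80 and 6.78 CPM in the Kdm5c+/- libraries and 3.39, 12.1 and 4.09 CPM in the wild-type libraries. Cd68 differed 20.7-fold (log2 -4.25 ± 0.24), the smallest difference among the 9. Its CPM ratio to Csf1r was 0.603 to 1.06 in mature adipocyte libraries against 0.264 to 0.404 in stromal vascular libraries, ranges that did not overlap.

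Scaling touched the size of these differences but changed no call among the 9 genes. The median of all genes moved by 0.36 with median-of-ratios scaling, by 0.55 with quantile normalization and by 0.44 with edgeR, which changed the split from 4072 genes called higher and 8394 lower to 5746 and 6533, to 6678 and 5542, and to 6063 and 6145. Under the same settings the macrophage genes' median was -5.20, -5.04 and -5.26.

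Mature adipocyte libraries held a few percent of the stromal vascular level of the same genotype and number. Such pairs of libraries are called pools here, although nothing in the labels says which mice each library came from. As a median over the 9 genes, the share was 1.45, 1.07 and 1.41% in the Kdm5c+/- pools and 1.71, 5.01 and 1.86% in the wild-type pools. The second wild-type pool stood above the other 5. For Cd68 the shares were 4.74, 4.10 and 4.49% and 2.82, 8.16 and 3.81% in the same order, above those of the other 8 genes in every pool. The median of the endothelial genes ran from 1.95 to 4.06% and that of the progenitor genes from 0.933 to 2.50%. The macrophage, endothelial and progenitor shares were thus of a like order. Whether the macrophage transcripts there came from carried-over cells was not tested.

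**Figure D2:**
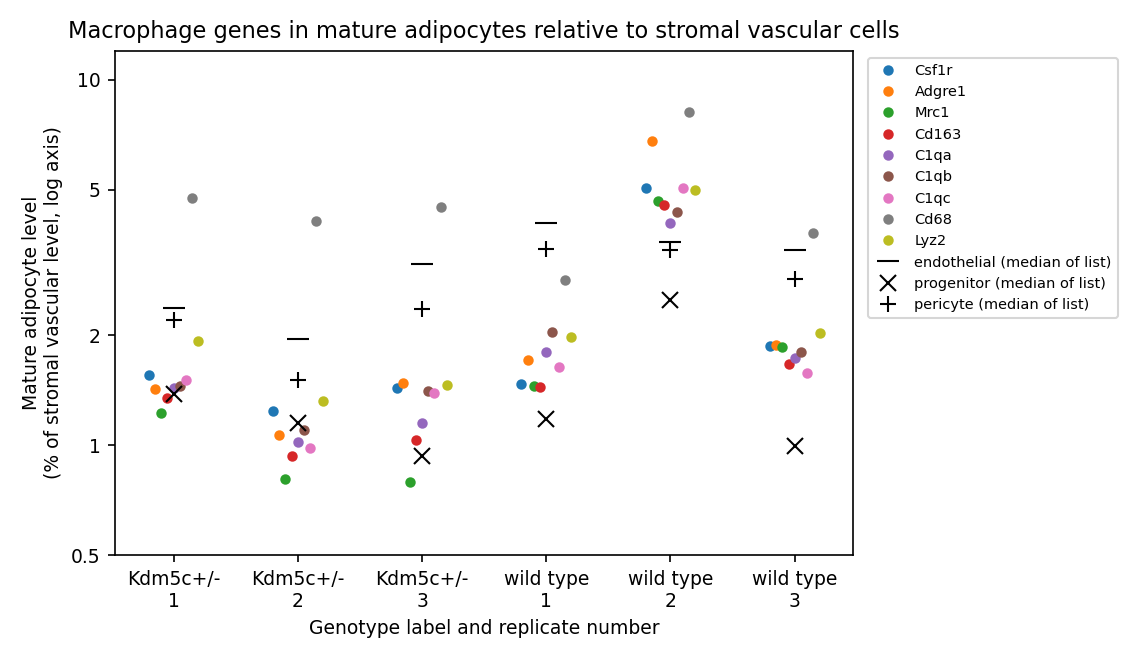
Level of each macrophage gene in a mature adipocyte library as a percent of the stromal vascular library of the same genotype and number (log axis), for 6 pools. Coloured points are the 9 genes, and black symbols the medians of the endothelial, progenitor and pericyte lists; the second wild-type pool has a median of 5.01% over the 9 genes and the others 1.07 to 1.86%.

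One mature adipocyte library stood apart for these genes. The second wild-type library was the highest of its fraction for 9 of 9 macrophage genes, and for 25.7% of all 11913 genes tested there. Its values were 2.29 (C1qb) to 3.68 (Adgre1) times the mean of the other wild-type libraries. The 9 genes summed to 119 CPM in it and to 38.8 to 47.0 CPM in the other 5. Myeloid genes shared by macrophages and related cells, such as Tyrobp and Fcer1g, were also high: 13 of 14 were highest in this library, with a sum of 81.4 against 18.2 to 23.5 CPM. The progenitor genes were high as well, 6 of 7 being highest there, with a sum of 153 against 71.2 to 92.5 CPM. Of the 5 pericyte genes 4 were highest there, with a sum of 127.5 against 40.0 to 97.3 CPM. The endothelial genes were not: 0 of 7 were highest in it, and their median ratio to the other wild-type libraries was 1.03. None of the 7 mature adipocyte markers was highest in it either, and their sum of 26515 CPM lay within the 26058 to 36844 CPM of the other 5. What raised the macrophage genes in this library was not tested.

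The genotype comparison within mature adipocytes asks whether these genes differed between Kdm5c+/- and wild type, and it turns on that library. None of the 9 genes passed the test (limma, adjusted p 0.322 to 0.985), and 0% of the 11913 genes tested did (14.6% had an unadjusted p under 0.05; at an adjusted p under 0.05 edgeR called 0 and DESeq2 250 genes, or 2.1%). All 9 estimates were below 0, as were 56.9% of all genes, with a median of -0.47 against -0.035. Mrc1 had the largest estimate, -0.87 ± 0.33 (SE; unadjusted p = 0.0350, adjusted p = 0.322 by limma), from 4.70, 3.88 and 4.31 CPM in the Kdm5c+/- libraries and 5.37, 15.5 and 7.61 CPM in the wild-type libraries. Mrc1 and Lyz2 were the 2 genes whose Kdm5c+/- libraries all lay below all wild-type libraries, where 12.6% of all genes did so. For Csf1r the estimate was -0.60 ± 0.39, with a 95% interval of -1.54 to 0.34, and for Cd68 -0.023 ± 0.41, with an interval of -0.99 to 0.94. Without the second wild-type library the median over the 9 genes was -0.078. Mrc1 then stood at -0.49 and Csf1r at -0.12, and C1qc and Cd68 turned to 0.081 and 0.47. Genes of other stromal vascular cells were also below 0 in the comparison of all 6 libraries: 7 of 7 progenitor genes with a median of -0.50 (-0.23 without the second wild-type library), 7 of 7 endothelial genes with -0.79 (-0.78) and 5 of 5 pericyte genes with -0.93 (-0.78). Their part in the macrophage values was not tested.

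The same comparison in stromal vascular cells gave estimates of the opposite sign. Again 0 of the 9 genes passed (limma, adjusted p 0.617 to 0.995), where 0.00725% of the 13792 genes tested, which is 1 gene, did and 7.56% had an unadjusted p under 0.05 (edgeR called 1 gene and DESeq2 53, or 0.384%, and 0 of the macrophage genes). The 9 estimates were all above 0, as were 40.6% of all genes, and their median was 0.37 against -0.033. The C1q chains stood furthest from overlap. C1qa averaged 352 ± 80.2 CPM in Kdm5c+/- and 258 ± 10.9 CPM in wild type (SD, n = 3), C1qb 309 ± 71.2 and 223 ± 17.4, and C1qc 311 ± 64.8 and 223 ± 15.4. Each of the 3 had all Kdm5c+/- libraries above all wild-type libraries, as 3.74% of all genes did. C1qb was at 245, 385 and 296 CPM in the Kdm5c+/- libraries and 205, 224 and 240.0 CPM in the wild-type libraries. C1qc was at 250.5, 379 and 302 CPM in the Kdm5c+/- libraries and 212, 217 and 241 CPM in the wild-type libraries. The first Kdm5c+/- library lay only just above the highest wild-type library for both, and the second was the highest.

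The estimates for the C1q chains were 0.42 ± 0.15 for C1qa, 0.45 ± 0.16 for C1qb and 0.46 ± 0.15 for C1qc on the log2 scale (SE; limma unadjusted p = 0.0283, 0.0278 and 0.0170, adjusted p = 0.634, 0.634 and 0.617). Cd163 had an estimate as large, 0.46 ± 0.29, but its Kdm5c+/- libraries spread from 177 to 424 CPM and enclosed the wild-type range. Adgre1 was estimated at 0.37 ± 0.16 and Mrc1 at 0.33 ± 0.14, with intervals of -0.010 to 0.75 and -0.0062 to 0.66. Nearer to 0 lay Csf1r at 0.11 ± 0.15, Lyz2 at 0.17 ± 0.16 and Cd68 at 0.0053 ± 0.16. Their 95% intervals ran from -0.23 to 0.45, -0.20 to 0.54 and -0.36 to 0.37. Relative to Csf1r, the CPM ratio of C1qa was 0.731 to 0.991 in Kdm5c+/- and 0.645 to 0.743 in wild-type libraries, and that of Mrc1 was 1.08 to 1.22 and 0.910 to 1.14. Both pairs of ranges overlapped.

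One stromal vascular library was high for most of these genes. The second Kdm5c+/- library was the highest of the 6 for 6 of the 9 genes, and for 21.5% of all genes, and the third was the highest for the other 3 (Csf1r, Mrc1 and Cd68). Without the second, all 9 estimates stayed above 0, with a median of 0.21. C1qa, C1qb and C1qc were then at 0.25, 0.27 and 0.30, and Cd163 at 0.16. Mature adipocyte markers also differed among these libraries: their sum was 1443, 1542 and 527 CPM in the Kdm5c+/- and 920.1, 444 and 574 CPM in the wild-type libraries. The endothelial genes summed to 7549, 5939.6 and 6469 and 7845, 7988 and 7377 CPM, with 0 of 7 estimates above 0 and a median of -0.20, and the 5 pericyte genes had a median of -0.39. The part of these other markers in the macrophage values was not tested.

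**Figure D3:**
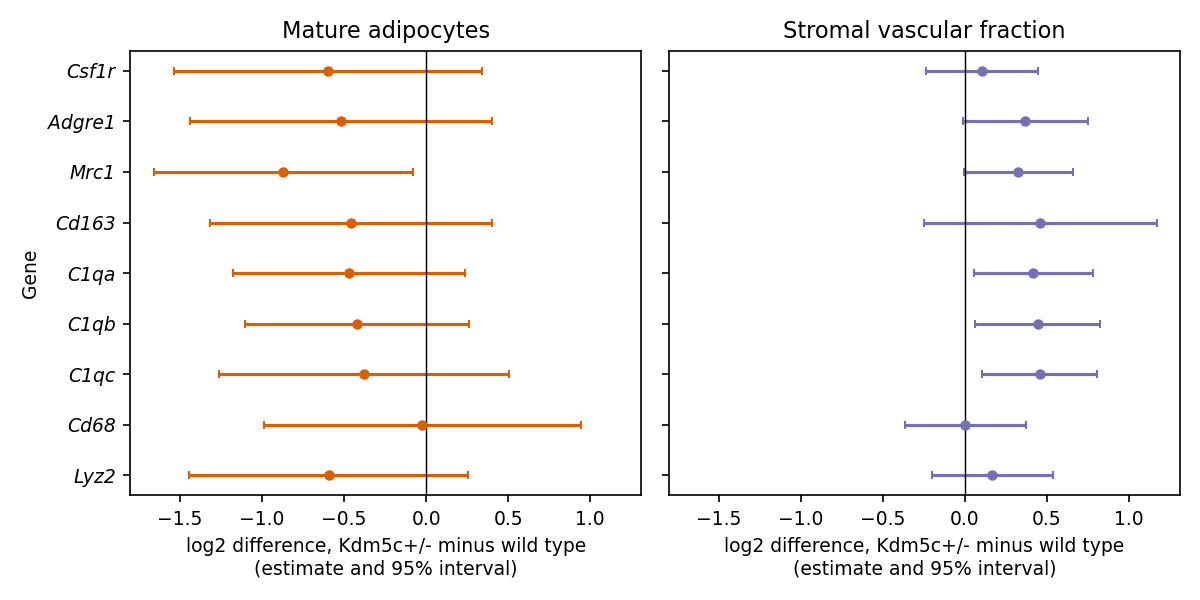
Genotype difference of each macrophage gene, Kdm5c+/- minus wild type, on the log2(CPM + 1) scale in mature adipocytes (left) and stromal vascular cells (right). Points are limma estimates from 3 against 3 libraries and bars their 95% intervals; all 9 estimates lie below 0 on the left and above 0 on the right, and 0 of them passed the adjusted test in either fraction.

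A direct test set the genotype difference of mature adipocytes against that of stromal vascular cells. It was below 0 for 9 of 9 genes, as for 52.7% of all 14193 genes, with a median of -0.87 against -0.015. None passed (limma, adjusted p 0.509 to 0.994), where 0% of all genes did, 8.93% had an unadjusted p under 0.05, and at an adjusted p under 0.05 edgeR called 0 genes and DESeq2 65, or 0.458%, with 0 macrophage genes among them. Mrc1 came nearest, at -1.20 ± 0.39 (unadjusted p = 0.00985, adjusted p = 0.509 by limma), and Cd68 was at -0.028 ± 0.47. Without the second wild-type mature adipocyte library the median over the 9 genes was -0.42, with Mrc1 at -0.81, Adgre1 at -0.42, C1qc at -0.38, Lyz2 at -0.31 and Csf1r at -0.22, and Cd68 turned to 0.46. The opposite signs in the 2 fractions were thus not shown to differ for any of the genes.

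The ligands of Csf1r followed a different pattern from the receptor. Csf1, which sustains macrophages, was at 47.7, 31.0 and 53.6 CPM in the Kdm5c+/- libraries and 67.5, 82.4 and 74.9 CPM in the wild-type libraries among mature adipocytes. In stromal vascular cells it was at 149, 175 and 177 CPM in the Kdm5c+/- libraries and 164, 128 and 176 CPM in the wild-type libraries, only 2.72-fold higher by the means (log2 -1.49 ± 0.13, called by limma). Il34, the other ligand, was at 19.2 to 29.1 CPM in mature adipocytes and 38.6 to 55.7 CPM in stromal vascular cells, 1.84-fold apart and also called. Mature adipocyte libraries thus held 36.0 to 59.0% of the stromal vascular level of the ligands, as the median of both, against 1.24 to 5.05% for the receptor. Within mature adipocytes every Kdm5c+/- library was below every wild-type library for Csf1, as for 12.6% of all genes. Its estimate was -0.78 ± 0.20 (limma adjusted p = 0.275, DESeq2 adjusted p = 0.0278). Csf1 therefore passed with DESeq2, as did 2.1% of all genes, and not with limma or edgeR. In the same comparison the endothelial and pericyte genes had medians of -0.79 and -0.93, their part in the Csf1 value being not tested. Il34 was estimated at 0.14 ± 0.17 there.

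Other macrophage genes were read as lists chosen with earlier results of these data in view. Between fractions, 14 of 14 shared myeloid genes and 12 of 12 genes of resident perivascular macrophages were called lower in mature adipocytes, where 59.1% of all genes were, with medians of -4.96 and -5.15 against -0.45 for all genes. Of the 7 transcription factors 5 were called lower, among them Spi1, which encodes PU.1 (-4.15 ± 0.16), while Nr1h3, the oxysterol receptor LXR alpha that adipocytes also express, was called higher (1.12 ± 0.055), as 28.7% of all genes were. The lipid-associated list split as well, with 8 of 13 called lower, a share near that of all genes, and 3 higher. Its tetraspanin Cd9 was at -5.43 ± 0.19 and its phosphatase gene Acp5 at 4.50 ± 0.17, so that this list did not follow the 9 genes as a block. Of the genes that act beside C1q in complement, 5 of 8 were called lower, again near the share of all genes, among them the anaphylatoxin receptors C5ar1 (-4.30 ± 0.13) and C3ar1 (-4.45 ± 0.19), and 3 were called higher.

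Between genotypes in stromal vascular cells, limma called 0 genes of these lists. Of the 12 resident perivascular genes 11 had estimates above 0, against 40.6% of all genes, with a median of 0.46 (0.39 without the second Kdm5c+/- library), and 4 had all Kdm5c+/- libraries above all wild-type libraries, against 3.74% of all genes. Timd4, a receptor for phosphatidylserine on dying cells, was at 0.58 ± 0.17, Cbr2 at 0.46 ± 0.14 and Folr2, a folate receptor, at 0.51 ± 0.17 (unadjusted p = 0.0103, 0.0142 and 0.0167, adjusted p = 0.617, 0.617 and 0.617 by limma). The lipid-associated genes had 5 of 13 estimates above 0, near the share of 40.6% of all genes, and a median of -0.11. Trem2, the lipid receptor that defines that programme, was at -0.70 ± 0.31, and Gpnmb, a glycoprotein of lipid-laden macrophages, at -0.83 ± 0.28 (limma adjusted p = 0.650 and 0.630). The genotypes overlapped for both, and the second wild-type library was the highest, at 9.52 CPM for Trem2 and 167 CPM for Gpnmb. Acp5 of the same list was of the other sign, at 0.46 ± 0.31 (limma adjusted p = 0.724), and its genotypes overlapped as well. Inflammatory activation genes had 2 of 8 above 0 and a median of -0.12, but 5 above 0 and a median of 0.044 without the second Kdm5c+/- library. Nos2, the inducible nitric oxide synthase, was at -0.81 ± 0.16 (limma adjusted p = 0.617), and Tnf was at -0.52 ± 0.24, while Cd86, a costimulatory ligand, was at 0.31 ± 0.095 (limma unadjusted p = 0.0130, adjusted p = 0.617), with all Kdm5c+/- libraries above all wild-type libraries. The phagocytic and pattern receptors had 7 of 9 above 0 and a median of 0.094 (5 above 0 and 0.031 without that library). Siglec1, a sialic acid receptor, was at 0.89 ± 0.24 (limma adjusted p = 0.617). Tlr2 was at -0.19 ± 0.085 and Clec7a at -0.60 ± 0.35 (limma adjusted p = 0.652 and 0.697). Nos2 and Siglec1 had adjusted p-values of 0.00853 and 0.0276 with DESeq2, which called 0.384% of all genes. Alternative activation genes, 3 of which also stand in the resident list, had 4 of 7 above 0 and a median of 0.26 (0.13 without it), with Mgl2, a galactose-type lectin, at 0.46 ± 0.16. Among the C1q partners 6 of 8 were above 0, with a median of 0.061 (4 above 0 and 0.0017 without the same library). C4b, the next component C1q acts on through its proteases, was at 0.66 ± 0.28 (lowest limma adjusted p of this list 0.644). It was higher in the adipocyte fraction, at means of 1728 against 585 CPM. The mature adipocyte markers had a median of 0.81 in this comparison, and their part in the C4b value was not tested. Differences between the lists were not tested.

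**Figure D4:**
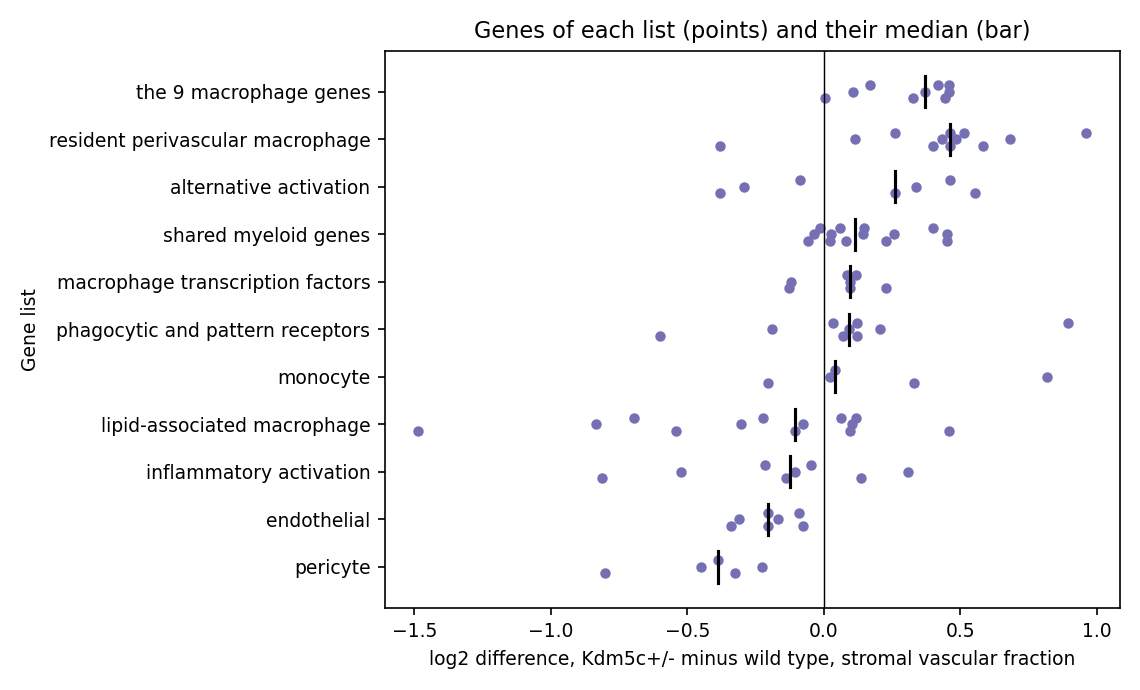
Genotype difference, Kdm5c+/- minus wild type, of the genes of 11 lists in stromal vascular cells on the log2(CPM + 1) scale. Each point is a gene, each bar the median of its list; the resident perivascular list has a median of 0.46 and the pericyte list one of -0.39, and limma called 0 of the genes shown.

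In mature adipocytes fewer genes of these lists were high enough to test, and limma again called 0. All 8 resident perivascular genes tested had estimates below 0, with a median of -0.39 (-0.10 without the second wild-type library). Stab1, a scavenger receptor, was at -0.67 ± 0.21 (limma unadjusted p = 0.0171, adjusted p = 0.295). Of the shared myeloid genes 8 of 9 tested were below 0, with a median of -0.58 (-0.049 without that library). Of the lipid-associated genes 6 of 8 tested were above 0, with a median of 0.14, where 56.9% of all genes were below 0. The lysosomal protease gene Ctsd was at 0.51 ± 0.19 and Acp5 at 0.28 ± 0.12 (limma adjusted p = 0.307 and 0.346). The other 2 were below 0, among them Gpnmb with the largest estimate of the list, -0.86 ± 0.50 (limma adjusted p = 0.440). Gpnmb was at means of 1.99 CPM in mature adipocytes and 103 CPM in stromal vascular cells. Ctsd and Acp5 were instead higher in the adipocyte fraction than in stromal vascular cells, at means of 1921 against 526 CPM for Ctsd and 548 against 24.3 CPM for Acp5. The mature adipocyte markers had 5 of 7 estimates above 0 and a median of 0.27 between genotypes in the same libraries, and their part in these values was not tested. Of the 5 transcription factors tested 3 were above 0, with a median of 0.071. Nr1h3 was at 0.38 ± 0.081 (adjusted p = 0.273 by limma and 0.0224 by DESeq2, which called 2.1% of all genes). It was higher in the adipocyte fraction, at means of 118 against 53.0 CPM. Maf was at -0.68 ± 0.27 and Irf8 at -0.98 ± 0.60 (limma adjusted p = 0.336 and 0.456).

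Genes outside the set were ranked by how closely their log2 profile over the 12 libraries, centred on its own mean, tracked the median profile of the macrophage genes, among 7795 genes at 20 CPM or more in stromal vascular cells. The 5 closest were F13a1, Ptprj, Mgl2, Fcgr2b and Mmp9, with root mean square distances of 0.164, 0.180, 0.182, 0.197 and 0.201 log2 units. F13a1, the A chain of coagulation factor XIII, was at 337 ± 84.8 CPM in stromal vascular cells (SD, n = 6) and at 6.13 ± 2.699 CPM in mature adipocytes, with 11.6 CPM in the second wild-type library. Among the 9 genes themselves Lyz2 was the closest to that profile, at 0.0873, and Cd68 the farthest, at 0.664, beyond Mrc1 at 0.278. This distance includes the size of the fraction difference, which was smallest for Cd68, so it does not measure tracking within a fraction alone.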

How the data were processed

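RNA of 12 libraries was measured by strand-specific mRNA sequencing (NuGEN kit, per the labels' protocols), with 3 libraries for each genotype and fraction. The authors deposited 1 table of CPM values for 16670 genes, each above 0.1 CPM in at least 3 libraries; STAR 2.7.2a, edgeR 3.26.8 and GRCm38 are named per the submitters' processing notes, and a counting tool and an annotation were not found in the sources used here. Each column summed to 1000000, and 100% of its values were whole multiples of the value of 1 read (tolerance 0.05 read), so whole reads were recovered for the count tests. 23 symbols had been turned into dates, and 0 mitochondrially encoded genes were listed.

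Genes reaching 1 CPM in 3 or more fitted libraries were tested with limma 3.58.1 (trend and robust eBayes, R 4.3.3) on log2(CPM + 1), two-sided, with Benjamini-Hochberg adjustment over all genes and a threshold of 0.05. A log2 difference on this scale understates the change of low genes. Genotypes were compared within each fraction, fractions over all 12 libraries, and the difference of genotype differences in the same model. Alternatives were a pseudocount of 0.25 CPM, no filter, a filter on means below 5 CPM, scaling by median of ratios, quantile normalization, edgeR 4.0.16 and DESeq2 1.42.0 on the recovered reads, a replicate block, all 12 libraries for the genotype tests, and leaving out each library. Of these fits only limma in its unblocked form was checked on simulated counts, with the same dispersion for all genes and independent libraries.

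Libraries of the 2 fractions with the same genotype and number deviated together (r = 0.169 to 0.278 over the 6 pairs). From the data they were taken as pairs for the percent of the stromal vascular level and in the blocked alternative. The main fits did not use the pairing. Their standard errors and p-values for fractions and for the difference of differences therefore ignore it. Blocking on the pairs changed no call for the 9 genes. Libraries of a group differed by more than counting noise, but nothing in the labels says which mice each pool came from, so p-values measure the spread between these libraries. Expression per length used the longest protein-coding transcript of GENCODE mouse release 21. The genes and all lists were chosen with earlier results of these data known. Named besides the 9 genes are at most 3 genes per list, those with the smallest unadjusted p in the comparison described, Csf1, Il34, the checks of label and fraction, and the 5 genes most like the set. Outside this rule, Tyrobp and Fcer1g were named as examples of the shared myeloid list, and Lyz1 and Hmgxb3 for their position beside or over a member. Protein sequences are not shown.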

Additional observations from a re-analysis of the deposited data

How the results depend on the processing

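In every setting run, 0 macrophage genes passed for genotype in mature adipocytes (15 settings), in stromal vascular cells (15) and for the difference of differences (20), and 9 passed between fractions (20). The smallest adjusted p of any of the 9 under any setting was 0.101 for genotype in mature adipocytes, 0.186 in stromal vascular cells and 0.0798 for the difference of differences. Signs changed for Cd68 and C1qc alone. In mature adipocytes Cd68 was at 0.012 with median-of-ratios scaling and 0.058 with quantile normalization; leaving out 1 library at a time gave -0.32 to 0.47 for Cd68 and -0.63 to 0.081 for C1qc there, -0.13 to 0.13 for Cd68 in stromal vascular cells and -0.33 to 0.46 for its difference of differences. Over all genes, calls for genotype in mature adipocytes went from 0 to 250 with DESeq2, 1 with all 12 libraries and 3 without Kdm5c+/- library 3. In stromal vascular cells they went from 1 to 53 with DESeq2, 4 with all 12 libraries, and 0 without any 1 library. For the difference of differences they went from 0 to 65 with DESeq2 and 7 without Kdm5c+/- mature adipocyte library 3. Across genotypes, libraries of replicate number 1 deviated together (r = 0.341 in mature adipocytes and 0.184 in stromal vascular cells). Those of numbers 2 and 3 did not (r = -0.0264 and -0.00134, and -0.281 and -0.204). The fraction pairs had r = 0.169 to 0.278, so r alone does not settle which libraries belong together. With the replicate block 0, 0, 9 and 0 macrophage genes passed (genotype in mature adipocytes, in stromal vascular cells, fractions, difference of differences). All-gene calls in stromal vascular cells then fell from 1 to 0. The filter at a mean of 5 CPM left 6 of the 9 genes tested in mature adipocytes, where levels of a few CPM and 3 libraries per group limit the precision.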

Other observations

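Genes of other blood-derived cells were measured in the same libraries. All 7 dendritic cell genes and all 5 monocyte genes were called lower in mature adipocytes than in stromal vascular cells by limma, where 59.1% of all genes were, with medians of -2.50 and -4.04. The chemokine receptor gene Ccr2, which marks monocytes leaving the blood, was at -4.78 ± 0.21 and the lectin gene Cd209a at -4.36 ± 0.14. The mast cell proteases Mcpt4 (-5.87 ± 0.13), Cma1 (-5.52 ± 0.13) and Tpsb2 (-5.82 ± 0.12) separated as widely as the macrophage genes did, 7 of 7 mast cell genes being called lower. Between genotypes in stromal vascular cells limma called 0 genes of these lists, with medians of 0.094 for dendritic cell, 0.043 for monocyte, 0.20 for mast cell, -0.38 for neutrophil, -0.19 for lymphocyte, 0.018 for progenitor and 0.014 for mammary epithelium genes, and 0.095 for the macrophage transcription factors and 0.11 for the shared myeloid genes. Mature adipocyte genes had a median of 0.81 there. Without the second Kdm5c+/- library the lymphocyte median turned to 0.36, with 9 of 9 above 0 in place of 2, the mammary epithelium median to -0.36 and the monocyte median to 0.49. The dendritic cell median was then 0.15 and the mature adipocyte median 0.54.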
